A study of Mus musculus with 34 samples.

Results

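The olfactory receptor cluster of mouse chromosome 2 was described here as the count-table regions on chromosome 2 that start from 85.0 Mb up to 90.5 Mb (GRCm38, the mm10 assembly), an interval of 5500 kb. A region is a stretch of DNA in which the authors counted sequenced ChIP fragments, and 2 region lists were deposited. The shared list, used for all H3K9me3 libraries and for the H3K27ac libraries of the repeat series, had 239 of its 248336 regions in the cluster. The list used for H3K27ac in separate lines had 66 of 96988. The interval holds 287 annotated olfactory receptor genes, all with names that begin with Olfr, of which 227 are annotated as protein-coding, 45 as unprocessed pseudogenes, 12 as polymorphic pseudogenes and 3 as transcribed pseudogenes. It also holds 13 other protein-coding genes.

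The study measured 2 histone marks in mouse embryonic stem cells, the pluripotent cells of the early embryo grown in culture, in 34 libraries that fall into 12 groups. In the first series, called separate lines below, each mark was measured in 3 C57BL/6J lines (B6 4-1, B6 4-4 and B6 5-1) and in 3 DBA/2J lines (D2 2-9, D2 5-5 and D2 203). In the repeat series, each group was 1 line measured 2 or 3 times: B6 5-1 for B6, D2 5-5 for D2, QJ 6-1 for B6-13D2 and XE 2-4 for D2-13B6. B6-13D2, strain B6.D2-(rs30079041-rs51756099)/Bakr, is a congenic strain with DBA/2J DNA at a segment of chromosome 13 on a C57BL/6J background, and D2-13B6, labelled D2.B6-(rs29224292-rs13469455)/Bakr, carries C57BL/6J DNA at a segment of the same chromosome on a DBA/2J background. The labels give the 2 segments different markers at both ends, and the series text gives rs51756099 as the end marker of both, so the segments need not be the same stretch. The chromosome 2 cluster lies outside them, so in the congenic lines it belongs to the background strain. All cells grew in serum with LIF and the inhibitors PD0325901 and CHIR99021. The labels name no other allele or treatment. Since a repeat group is 1 line, its spread is technical, and a difference between groups of the repeat series cannot be told apart from a difference between 2 individual lines.

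Olfactory receptors are the odorant-binding receptors of sensory neurons in the nose, and each mature neuron transcribes essentially a single allele of a single receptor gene. The other receptor genes stay silent there under H3K9me3, trimethylated lysine of histone H3 that marks heterochromatin. H3K27ac, acetylated lysine of the same histone, marks active promoters and enhancers. Receptor genes have no known role in embryonic stem cells, and no expression was analysed here.

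The deposited regions lay mostly beside the receptor genes rather than on them. Of the 239 shared-list regions, 27 overlapped an Olfr gene, 55 overlapped another annotated gene and 157 overlapped no annotated gene. These regions covered 0.964% of the length of the Olfr genes, 11.1% of the length of the other genes and 2.89% of the DNA between genes. The cluster held 43.5 regions per Mb, against 103 per Mb on the rest of chromosome 2, 72.9 in the 5.5 Mb below it and 118 in the 5.5 Mb above it. Regions between genes were 58.6% soft-masked, that is, marked as repeats in the reference, against 48.0% of the regions at Olfr genes and 23.8% of those at other genes.

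The sequences below are 240 bases from the middle of 3 regions that fell most clearly in DBA/2J, shown so that the DNA under these values can be seen. The first 2 come from the regions with the lowest adjusted p among those lower in DBA/2J in all 4 tables, at chr2:89569647-89569886 and chr2:86368082-86368321, and both stretches are wholly soft-masked. The third, at chr2:85792414-85792653, comes from the region with the largest fall of H3K9me3 in DBA/2J lines, and capitals there mark the bases outside soft-masked repeats. All are from the plus strand of GRCm38.
region_89569105: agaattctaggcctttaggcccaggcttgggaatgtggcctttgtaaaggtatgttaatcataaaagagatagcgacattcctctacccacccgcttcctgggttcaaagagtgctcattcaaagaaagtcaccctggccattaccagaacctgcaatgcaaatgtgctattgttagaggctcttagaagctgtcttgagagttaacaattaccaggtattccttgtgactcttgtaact
region_86367964: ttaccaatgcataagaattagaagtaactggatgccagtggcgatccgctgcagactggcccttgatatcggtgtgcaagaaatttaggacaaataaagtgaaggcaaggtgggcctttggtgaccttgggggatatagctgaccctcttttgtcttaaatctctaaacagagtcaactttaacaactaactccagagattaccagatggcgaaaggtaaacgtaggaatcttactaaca
region_85792272: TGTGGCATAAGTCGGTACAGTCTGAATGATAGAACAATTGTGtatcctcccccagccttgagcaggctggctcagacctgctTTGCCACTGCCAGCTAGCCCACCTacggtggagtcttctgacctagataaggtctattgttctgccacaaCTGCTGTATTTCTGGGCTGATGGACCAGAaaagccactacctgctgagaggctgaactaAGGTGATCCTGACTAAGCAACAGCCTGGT

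H3K9me3 in the cluster was lower in all 3 DBA/2J lines than in all 3 C57BL/6J lines. The cluster held 0.173%, 0.158% and 0.165% of the counts of the B6 libraries and 0.114%, 0.123% and 0.137% of the counts of the D2 libraries. The groups did not overlap, and the D2 mean was 0.755 times the B6 mean (0.125% ± 0.0117 against 0.165% ± 0.00775, SD, n = 3 lines each; two-sided exact permutation test p = 0.1, the smallest that 3 against 3 allows). Expressed as CPM (counts after TMM scaling, relative to the library's counts in tested regions) per kb of region, the level was 17.2 ± 0.447 in B6 and 12.2 ± 0.478 in D2. On the rest of chromosome 2 it was 7.16 ± 0.447 in B6 and 7.10 ± 0.472 in D2. The cluster's regions were therefore denser in H3K9me3 than other regions of the chromosome in both strains, on regions that are fewer per Mb. Reads of both strains were aligned to C57BL/6J sequence, so here and in all comparisons of a DBA/2J with a C57BL/6J cluster, less of a mark in D2 cannot be told apart from reads that align less well or DNA that DBA/2J lacks.

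**Figure D1:**
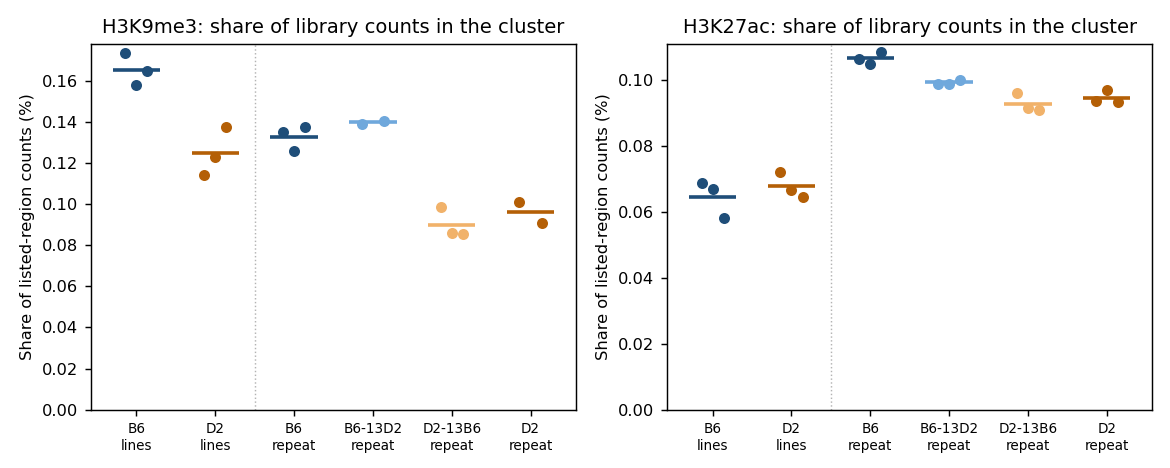
Share of each library's counts that fell in the cluster (percent, y axis from 0) for H3K9me3 and H3K27ac; points are libraries, bars are group means, and the dotted line separates the separate lines from the repeat series. For H3K9me3 the D2 lines sit between 0.114% and 0.137% and the B6 lines between 0.158% and 0.173%, and in the repeat series B6-13D2 sits with B6 and D2-13B6 with D2; for H3K27ac the B6 and D2 lines overlap.

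Region by region, 94 of the 239 passed the filter on low counts in separate lines, and 34 of them differed between strains (edgeR quasi-likelihood test, Benjamini-Hochberg adjusted p under 0.05). That share is near the background of all tested regions, of which 34.7% were called. The direction was not balanced: 31 regions were lower in D2 and 3 were higher, where 17.4% of all tested regions were lower and 17.3% higher. The median log2 fold change over the 94 was -0.39, against 0.00 over all tested regions and 0.06 on the rest of chromosome 2. The other 145 regions had too few counts to be tested, with mean levels of at most 10.2 CPM. Scaling by library totals in place of TMM moved the median of all regions by 0.16 on the log2 scale and left 29 lower and 4 higher, with a median of -0.23.

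In 500 kb steps of separate lines, the ratio of D2 to B6 was lowest at 86.0 to 86.5 Mb, and at both ends of the interval the strains overlapped. In that step, summed H3K9me3 was 343 ± 22.9 CPM in B6 and 163 ± 8.35 CPM in D2 (SD, n = 3), a ratio of 0.474, and 9 of its 11 tested regions were called lower. This step holds 42 Olfr genes, the most of any step, and 8 of them had a region. The D2 and B6 lines also did not overlap in the steps from 85.5 Mb (ratio 0.541), 87.0 Mb (0.791), 87.5 Mb (0.653), 89.0 Mb (0.682) and 89.5 Mb (0.562). Of the 2 tested regions in the step from 85.5 Mb, 1 was called lower and 1 higher. The fall of that step lies in 1 region, chr2:85792272-85792795, with 74 counts in B6 and 4 in D2. The remaining steps, from 85.0, 86.5, 88.0, 88.5 and 90.0 Mb, had ratios of 0.771, 0.875, 0.864, 0.801 and 0.947 with overlapping groups. The first and last of these hold flanking non-receptor genes, with 9 and 17 Olfr genes. H3K27ac did not follow this profile throughout. It was 86.6 ± 11.8 CPM in B6 and 38.9 ± 1.42 in D2 at 86.0 Mb, a ratio of 0.45, and its ratios were 0.724, 0.693 and 0.514 in the steps from 88.5, 89.0 and 89.5 Mb, all without overlap. From 87.0 Mb it was higher in D2 (162 ± 16.8 against 236 ± 14.5 CPM), as it was from 87.5 Mb (160.4 ± 18.7 against 203 ± 11.1). The rise of the sum from 87.0 Mb lies in 1 region, chr2:87477387-87508478 (141 against 220 CPM). Of the 7 tested regions of that step, 2 were called higher and 3 lower, with a median log2 fold change of -0.50. In the outer steps and from 88.0 Mb the lines overlapped, and no H3K27ac region of this list lies in the steps from 85.5 and 86.5 Mb.

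**Figure D2:**
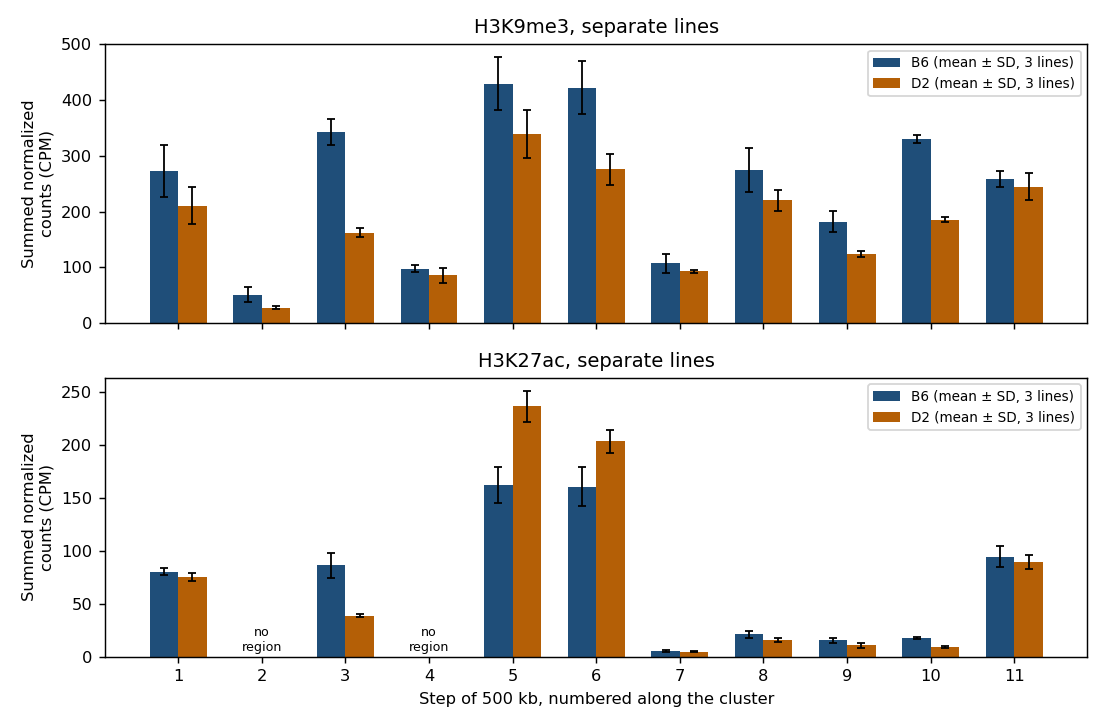
Summed normalized counts (CPM, y axis) in 11 steps of 500 kb along the cluster, for H3K9me3 and H3K27ac in separate lines; bars are means and error bars SD over 3 lines per strain. H3K9me3 is lower in D2 in every step, most in step 3 (343 against 163 CPM), whereas H3K27ac is lower in D2 in step 3 and higher in steps 5 and 6.

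Within each library, H3K9me3 per kb was lower in regions at Olfr genes than in regions between genes. The log2 ratio of the 2 classes averaged -0.57 over the 6 libraries and was negative in every one, from -0.77 to -0.31 (two-sided exact sign-flip permutation test p = 0.031, the smallest that 6 libraries allow). In CPM per kb, regions between genes had 22.8 ± 0.230 in B6 and 15.8 ± 0.883 in D2, regions at Olfr genes 14.7 ± 1.36 and 11.2 ± 1.13, and regions at other genes 8.08 ± 0.687 and 6.22 ± 0.0973 (SD, n = 3). When regions at other genes were counted with those between genes the ratio was -0.20 (exact permutation p = 0.063). Called lower in D2 were 25 of the 71 tested regions between genes, 3 of the 8 at Olfr genes and 3 of the 15 at other genes, where 17.4% of all tested regions were.

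The region with the lowest adjusted p, chr2:85792272-85792795, lies between genes, 4460 bp from Olfr1015. It had 26.4, 29.4 and 22.6 CPM of H3K9me3 in the B6 lines and 0.823, 1.87 and 0 CPM in the D2 lines, and the D2 values rest on 4 counts in all. The ratio of counts, 74 in B6 to 4 in D2, was 27 after scaling, with an exact 95% interval of 10.1 to 102 that covers counting error only. This is the lowest log2 fold change among the 94 tested regions in separate lines, and the mark was at or near 0 in each D2 line. Near Olfr1245, chr2:89562380-89563793 had 93.0, 76.1 and 86.1 CPM in B6 and 26.3, 29.9 and 27.1 CPM in D2, a log2 fold change of -1.61 ± 0.185 (SE; edgeR adjusted p = 4.0e-09). Its neighbour chr2:89569105-89570427, 2979 bp from the same gene, had 68.7, 63.1 and 54.4 CPM in B6 and 20.6, 20.6 and 27.1 CPM in D2 (-1.45 ± 0.203, adjusted p = 2.6e-07). At chr2:86367964-86368438, 4123 bp from Olfr1057, B6 lines had 34.9, 33.7 and 33.8 CPM and D2 lines 8.22, 9.36 and 12 CPM (-1.78 ± 0.262, adjusted p = 6.8e-07). All of these are intergenic, and in each the B6 and D2 lines were far from overlapping. The fifth region named by the rule, chr2:87514576-87518965, overlaps an exon of Gm13738 and had 106, 57.6 and 132 CPM in B6 against 16.5, 30.6 and 29.3 CPM in D2 (-1.93 ± 0.228, adjusted p = 7.0e-09).

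Of the 94 tested regions 3 were called higher in D2. The intergenic region chr2:89475560-89475967, 5347 bp from Olfr1241, had 4.23, 6.53 and 5.13 CPM in B6 and 21.4, 18.1 and 18.8 CPM in D2 (log2 fold change 1.85 ± 0.358, edgeR adjusted p = 6.3e-05). A coding exon of Pramel7 at chr2:87489612-87490359 rose from 9.49 ± 0.777 to 21.1 ± 5.63 CPM (1.16 ± 0.313, adjusted p = 0.0030). The region at chr2:85893167-85893591, 1954 bp from Olfr1023, rose from 3.16 ± 2.76 to 9.78 ± 2.23 CPM (1.57 ± 0.523, adjusted p = 0.016).

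Counts over the receptor genes themselves exist for the 27 Olfr genes with a shared-list region, 9.41% of the 287, and the others were not measured. Of these regions 8 could be tested in separate lines, with a median log2 fold change of 0.01, and 3 were called lower, where 17.4% of all tested regions were. In the repeat series 9 were tested and 0 called by edgeR, where 11.3% of all tested regions were called. Of the 9, 4 had an unadjusted p under 0.05, and the median was -0.56. The highest mean levels were over single short regions of Olfr1220 (38.3 ± 1.13 CPM per kb in B6, 62.8 ± 10.4 in D2) and Olfr1152 (34.9 ± 21.8 in B6, 44.7 ± 9.11 in D2). Olfr1166 had 30.9 ± 3.78 in B6 and 37.5 ± 6.97 in D2, and Olfr1198 had 34.2 ± 4.71 in B6 and 31.3 ± 0.851 in D2. None of these 4 was called. B6 and D2 lines overlapped at all but Olfr1220, where each D2 line was above each B6 line (edgeR adjusted p = 0.12). The next levels were at Olfr1224-ps1, Olfr52, Olfr1044, Olfr1256, Olfr1033 and Olfr1123. Across the cluster every D2 line was below every B6 line at 62 of 239 regions, and this held at all of these genes. The 3 called lower were among these: Olfr1224-ps1 went from 22.2 ± 3.84 to 6.53 ± 2.94 CPM per kb, Olfr52 from 16.8 ± 0.653 to 8.80 ± 1.43 over its 2 regions and Olfr1044 from 15.7 ± 2.35 to 7.24 ± 3.01. Olfr1256, Olfr1033 and Olfr1123 had 14, 14.1 and 12.8 CPM per kb in B6 and 6.70, 6.23 and 7.09 in D2, and their regions had too few counts to be tested. All of these genes encode odorant receptors, and Olfr1224-ps1 is annotated as protein-coding despite its name.

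H3K27ac in separate lines was called at a share of regions close to the background, 34 of 66 against 49.3% of all tested regions, with 25 lower in D2 (background 25%) and 9 higher (background 24.3%). The median log2 fold change was -0.33, against -0.01 over all regions. The cluster's share of all counts did not follow: it was 0.0647% ± 0.00565 in B6 and 0.0679% ± 0.00393 in D2 (SD, n = 3; exact permutation p = 0.6), with overlapping groups. Much of that sum lay in 1 stretch.

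That stretch surrounds Pramel7 and Pramel6, members of the PRAME-like family that are known for expression in early embryos and naive stem cells. With 20 kb on either side of these genes it held 3 of the 66 regions, yet 39.9% of the cluster's H3K27ac counts in B6 lines and 52.3% in D2 lines. The region over both genes, chr2:87477387-87508478, had 152, 146 and 124 CPM in B6 and 236, 218 and 206 CPM in D2 (log2 fold change 0.64 ± 0.0669, edgeR adjusted p = 8.0e-12). The next region, chr2:87508816-87524508, holds Olfr1127-ps1, Gm13738 and part of Pramel6 and rose from 89.5 ± 9.74 to 121 ± 8.47 CPM (0.44 ± 0.0697). At the start of Pramel7, the shared-list region chr2:87495681-87498220 in the repeat series had 41.2 and 39.4 CPM in B6, 71.5 and 64.8 in D2, 33.9 and 34 in B6-13D2 and 71.1 and 59.6 in D2-13B6. The 2 lines with a DBA/2J background were thus above the 2 with a C57BL/6J background (D2 minus B6, 0.76 ± 0.128, adjusted p = 7.8e-06). H3K9me3 at the same start was 19.6 ± 8.61 CPM in B6 and 12.5 ± 2.25 in D2 lines (adjusted p = 0.10). H3K27ac also rose at the receptor gene Olfr153, whose region chr2:87531570-87538640 went from 29.0 ± 3.94 to 45.2 ± 1.20 CPM (0.64 ± 0.0802).

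Between these rises, the region chr2:87525170-87531185 over Gm13736, 611 bp from Olfr153, fell from 26.9 ± 4.04 to 16.2 ± 1.19 CPM (-0.73 ± 0.0940). The other 2 regions that rose by the naming rule were small: chr2:87559710-87561362 at Gm13744 (1.95 ± 0.429 to 4.94 ± 0.39 CPM) and the intergenic chr2:87446925-87448110 (2.24 ± 0.262 to 4.27 ± 0.292 CPM). All 5 of the named rises lay in the steps from 87.0 and 87.5 Mb.

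The 4 other named falls of H3K27ac lay in the steps from 86.0, 87.0 and 89.5 Mb. The region chr2:86174552-86183565, which runs over Olfr1044 and Olfr52, had 45.6, 35.5 and 34.6 CPM in B6 and 14.4, 14.7 and 15.3 CPM in D2 (log2 fold change -1.39 ± 0.0916, edgeR adjusted p = 5.2e-19). The intergenic region chr2:86440328-86443533, 425 bp from Olfr1065, fell from 20.2 ± 2.03 to 6.74 ± 0.403 CPM (-1.59 ± 0.107). The region chr2:89568497-89570734 near Olfr1245 fell from 7.23 ± 1.12 to 2.12 ± 0.606 CPM (-1.78 ± 0.175), and chr2:87019490-87020936 at Olfr1104 from 4.97 ± 0.738 to 1.89 ± 0.213 CPM (-1.40 ± 0.185). B6 and D2 lines did not overlap in any of them. The 5 Olfr genes highest in H3K27ac per kb were Olfr1127-ps1, Olfr153, Olfr52, Olfr1044 and Olfr1215, and the first 4 owe their level to the wide regions just described.

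The comparison of receptor regions with regions between genes gave no stable direction for H3K27ac. The within-library log2 ratio was 0.75 on average (exact permutation p = 0.031, positive in 6 of 6 libraries). It was 0.29 without the Pramel stretch and -0.26 when a region had to lie for the most part inside an Olfr gene to count as a receptor region.

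Regions called for both marks were mostly lower in D2 for both. In separate lines, 15 of the H3K9me3 regions were called for both marks, H3K27ac being read at the region with the largest overlap; 11 were lower in D2 for both, 1 was higher for both and 3 went opposite ways. This is 80% in the same direction, where 34% of the 6874 such regions in the genome were. Some of the 15 were read at the same wide H3K27ac region, so they are not 15 separate H3K27ac results. In the repeat series, where both marks were counted in the same regions, all 10 cluster regions called for both marks were lower for both in D2, against 58.4% in the same direction genome-wide. In the cluster the calls of each mark already lean lower (31 of 34 for H3K9me3 and 25 of 34 for H3K27ac in separate lines), so agreement in direction follows in part from these counts and is given as a description. Over the 31 regions chosen for lower H3K9me3 in D2 lines, H3K27ac in the repeat series was called lower at 14 of the 27 tested. Among the 60 regions tested but not called for H3K9me3, H3K27ac in the repeat series was called lower at 12 and higher at 8 of 51 tested. Over all tested regions 13.4% were lower and 14.7% higher.

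The 3 exceptions were in the Pramel stretch. The Gm13738 region chr2:87514576-87518965 and the intergenic regions chr2:87520383-87521969 and chr2:87478881-87483026 had H3K9me3 log2 fold changes of -1.93, -1.46 and -0.72, while the H3K27ac regions over them rose by 0.44, 0.44 and 0.64. A single wide H3K27ac region gave both values of 0.44.

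**Figure D3:**
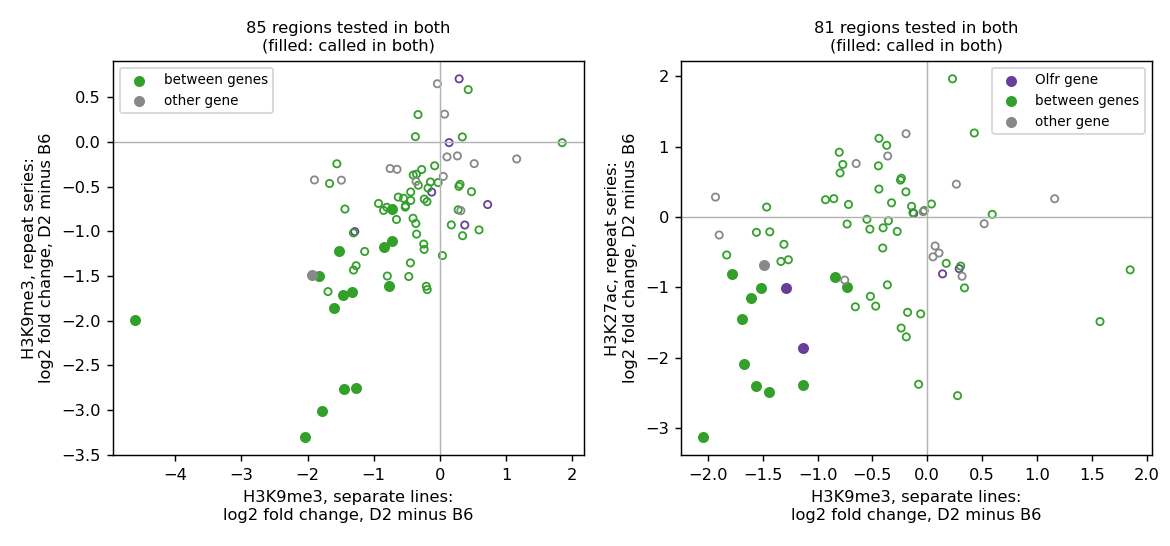
Log2 fold change of D2 minus B6 for H3K9me3 in separate lines (x axis) against the same for H3K9me3 (left) and H3K27ac (right) in the repeat series (y axes); points are cluster regions tested in both, filled where called in both. All 15 filled points on the left and all 14 on the right lie where both values are negative.

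The repeat series gave the same direction from new libraries of 1 line per strain, both lines being among those used above. Of 121 tested cluster regions, 22 differed in H3K9me3 between D2 and B6, 21 lower and 1 higher in D2. Among all tested regions 11.3% were called, 6.76% lower and 4.58% higher. The median log2 fold change was -0.56, against 0.04 over all. Of the 31 regions lower in D2 separate lines, 28 could be tested and 15 were called lower again. In the steps from 86.0 to 90.0 Mb no D2 library reached the lowest B6 library, with D2 to B6 ratios from 0.484 to 0.737. The lowest ratio was here in the step from 89.5 Mb, and the step from 86.0 Mb had 0.624 with 2 of 12 tested regions called lower. Without D2 replicate 1 or 2 the number of called regions was 12 or 13. The region near Olfr1245, chr2:89569105-89570427, had 21.8, 22.8 and 33.2 CPM in B6 and 1.79 and 5.43 CPM in D2 (-2.77 ± 0.414, edgeR adjusted p = 4.5e-08), and its H3K27ac was 15.2 and 18.4 CPM in B6 and 2.67 and 3.41 in D2 (-2.49 ± 0.204, adjusted p = 1.5e-13). The Gm13738 region again fell in H3K9me3, from 50.4 ± 4.88 to 17.8 ± 1.13 CPM (n = 3 and 2 libraries). The only rise was in an intron of Tnks1bp1, chr2:85064755-85065800, from 5.90 ± 1.84 to 14.7 ± 2.07 CPM (1.28 ± 0.392, adjusted p = 0.017).

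H3K27ac in the repeat series differed between D2 and B6 at 58 of 169 tested regions, 42 lower and 16 higher in D2. Over all tested regions 28.1% were called, 13.4% lower and 14.7% higher. The intergenic region chr2:86441708-86443377, 581 bp from Olfr1065, fell from 23.8 ± 2.98 to 5.48 ± 0.192 CPM (log2 fold change -2.09 ± 0.169, edgeR adjusted p = 9.6e-14). The region with the lowest adjusted p among the rises, chr2:88509024-88509173, went from 0.899 ± 0.00449 to 3.51 ± 0.143 CPM, 6975 bp from Olfr1185-ps1. Regions at Olfr genes were called lower in 6 of 16 tests. Fibroblast markers had more H3K27ac at their starts in D2 than in B6 in this series, with summed levels of 29.7 to 34.3 CPM against 12.1 to 14.1, 20.6 to 22.3 in B6-13D2 and 15.5 to 31.9 in D2-13B6. Without B6 replicates 1 and 2, 32 cluster regions were called, and 29 without D2 replicates 1 and 3. Of the 6 fibroblast markers 4 were called higher in D2 and Col3a1 had no region. In separate lines, where 2 of the 6 had a region, the sum was 5.01 to 5.51 CPM in D2 and 6.55 to 8.86 in B6. The sum of endoderm markers was 9.05 to 9.89 CPM in D2 and 11.7 to 12.4 in B6 in separate lines (2 markers with a region). In the repeat series it was 11.3 to 12.2 and 9.63 to 10.7 (3 markers with a region). The 2 series thus sum different sets of markers, on different region lists and with different antibodies, so the change of side is not read as a reversal. Trophoblast markers summed in the repeat series to 31.2 to 32.3 CPM in D2 against 16.2 to 19.7 in B6, 28.3 to 32.2 in B6-13D2 and 32.8 to 37.7 in D2-13B6. Embryonic stem cell markers were also higher in D2 without overlap, at 1109 to 1218 CPM against 916 to 1024 in B6, 1080 to 1145 in B6-13D2 and 1183 to 1283 in D2-13B6. In H3K9me3 of the repeat series the fibroblast, trophoblast and olfactory neuron lists were also higher in D2 without overlap (70.6 to 78.8 against 54.5 to 63.1 CPM, 112 to 115 against 95.9 to 102, and 48.3 to 61.3 against 33.9 to 41.8) and with edgeR adjusted p-values of the tested members from 0.22 to 0.97. In H3K9me3 of separate lines the trophoblast list was higher in D2 without overlap (54.9 to 69.9 against 44.4 to 51.3 CPM). None of its 4 tested members was called there, and the other marker lists overlapped. The part of these cell types in the differences was not tested. Scaling by library totals moved the median of all regions by -0.13 and gave 48 lower and 12 higher.

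In H3K9me3 the congenic lines were close to their background strain at the cluster. At the 31 regions lower in D2 lines, H3K9me3 of B6-13D2 was above the midpoint of B6 and D2 in 27, and H3K9me3 of D2-13B6 was below it in 29. Among the 60 regions tested but not called these numbers were 51 and 47. The cluster's share of H3K9me3 counts was 0.126% to 0.137% in B6, 0.139% to 0.140% in B6-13D2, 0.0910% to 0.101% in D2 and 0.0855% to 0.0984% in D2-13B6. For H3K27ac it was 0.105% to 0.109%, 0.0990% to 0.100%, 0.0933% to 0.0970% and 0.0911% to 0.0960% in the same order. H3K27ac of B6-13D2 thus lay between B6 and D2. For H3K9me3 the 2 groups with a C57BL/6J cluster were separate from the 2 with a DBA/2J cluster in every library. At chr2:89569105-89570427, B6-13D2 had 21.2 and 25.1 CPM and D2-13B6 8.10, 8.22 and 4.92 CPM. The step at 86.0 Mb showed the same order in summed H3K9me3: 163 ± 11.9 CPM in B6, 176 ± 11.2 in B6-13D2, 102 ± 6.13 in D2 and 101 ± 5.33 in D2-13B6 (SD; n = 3, 2, 2 and 3 libraries). Its H3K27ac was 113 ± 12.9, 127 ± 4.04, 53.3 ± 0.799 and 72 ± 10.4 CPM (n = 2 each). At the Gm13738 region, B6-13D2 had 49.3 and 51.5 CPM and D2-13B6 13.5, 19.4 and 17.6 CPM.

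**Figure D4:**
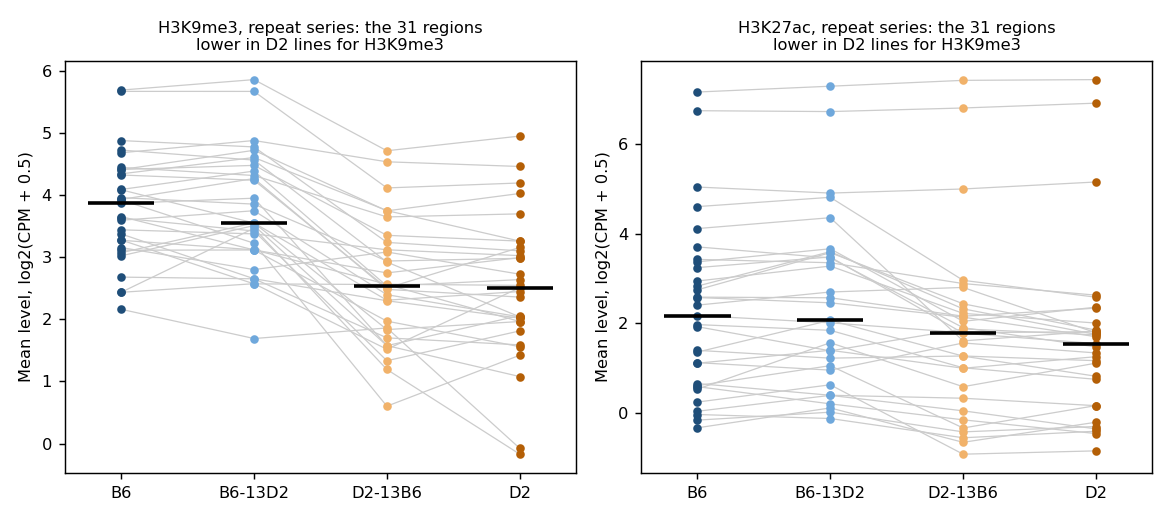
Mean level, as log2(CPM + 0.5), of the 31 regions lower in D2 separate lines for H3K9me3, in the 4 lines of the repeat series; points are regions, grey lines join a region and black bars are medians. For H3K9me3 the median falls between B6-13D2 and D2-13B6, the step at which the background strain changes, and for H3K27ac the order of the medians is the same with smaller steps.

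Against this, few regions of the cluster were called in the 2 comparisons that differ in the chromosome 13 segment. B6-13D2 differed from B6 in H3K9me3 at 1 of 121 tested regions (background 1.69%), and D2 differed from D2-13B6 at 3 (background 2.2%), all higher with the DBA/2J segment. Over all tested regions the H3K9me3 calls lean the same way, with 1.23% higher and 0.458% lower in B6-13D2 minus B6 and 1.81% and 0.395% in D2 minus D2-13B6. For H3K27ac, B6-13D2 differed from B6 at 20 of 169 regions (background 13%), 11 higher and 9 lower, or 8 higher and 16 lower when scaled by library totals, and D2 differed from D2-13B6 at 12 (background 6.67%), 2 higher and 10 lower. Over all tested regions 7.60% were higher and 5.40% lower in B6-13D2 minus B6, and 1.44% and 5.24% in D2 minus D2-13B6. The shares and the lean of the cluster's calls are near or below this background, and nothing particular to the cluster is read from them. D2-13B6 replicate 1 stood apart from its other replicates in both marks, with a chi-square per degree of freedom of 2.46 and 2.47 for H3K9me3, where the other pairs of that series gave 1.05 to 1.55, and of 2.81 and 2.79 for H3K27ac. Without it, 21 regions were called for H3K27ac in the D2 minus D2-13B6 comparison, and 5 without D2 replicates 1 and 3. B6-13D2 minus B6 had 3 without B6 replicates 1 and 2, 6 without B6-13D2 replicates 1 and 3, and 11 without B6 replicate 3 or B6-13D2 replicate 2.

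Those few H3K9me3 regions shared a sequence. Regions of the cluster were grouped where they have at least 50 words of 24 bases in common on either strand, which put 52 of the 239 regions into 16 groups. The largest group has 10 regions, from chr2:86842531-86843050 to chr2:90272464-90273250, of which 9 lie between genes and 1 at the end of Olfr1166. They are 282 to 787 bp long and 82.9% to 100% soft-masked. All 4 of the H3K9me3 calls in the 2 segment comparisons, which fall on 3 regions, belong to it. The grouping was looked for after these calls had been seen, so the counts are a description and carry no test. Of the 10 regions 9 share the word in capitals below, which is shown with its surroundings for those 3 regions and for the region that rose most in D2 separate lines, read on the strand that carries the word (minus, plus, minus and minus in this order).
copy_88969284: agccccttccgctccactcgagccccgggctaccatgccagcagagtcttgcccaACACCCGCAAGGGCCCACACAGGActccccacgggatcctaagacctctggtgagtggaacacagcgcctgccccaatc
copy_90272464: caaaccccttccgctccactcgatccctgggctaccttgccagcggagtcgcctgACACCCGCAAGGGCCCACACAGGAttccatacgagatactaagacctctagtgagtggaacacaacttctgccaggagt
copy_88122727: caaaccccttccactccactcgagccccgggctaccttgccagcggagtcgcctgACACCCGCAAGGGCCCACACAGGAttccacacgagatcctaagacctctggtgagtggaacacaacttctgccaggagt
copy_89475560: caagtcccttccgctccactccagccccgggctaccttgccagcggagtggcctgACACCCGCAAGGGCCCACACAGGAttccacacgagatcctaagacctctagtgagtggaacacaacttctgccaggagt
These copies stand at chr2:88969460-88969593, chr2:90273064-90273197, chr2:88122758-88122891 and chr2:89475581-89475714.

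Summed over the 10 regions, H3K9me3 was 113, 104 and 105 CPM in B6 and 144 and 142 CPM in B6-13D2. It was 84.1 and 72.9 CPM in D2 and 45, 28.4 and 31.6 CPM in D2-13B6. On either background the line with the DBA/2J segment was the higher one, without overlap. The sums include the regions called in the segment comparisons, after which the group was looked for, so they are no separate support for those calls. Of the 9 tested regions of the group, called ones included, 8 had positive log2 fold changes in B6-13D2 minus B6 and 9 in D2 minus D2-13B6. These regions share sequence, so reads of one copy may be counted at another, and copies elsewhere in the genome may add to the sums. H3K27ac ran the other way: it was 11.7 and 11.4 CPM in B6, 3.68 and 3.6 in B6-13D2, 3.61 and 5.80 in D2 and 17.5 and 12.8 in D2-13B6. The 2 lines with the DBA/2J segment were thus below the 2 with the C57BL/6J segment. In separate lines, where segment and background strain change together, H3K9me3 was 152, 152 and 138 CPM in B6 and 154, 177 and 178 CPM in D2. The second largest group, of 9 regions, had log2 fold changes from -0.18 to 0.52 (B6-13D2 minus B6) and from -0.62 to 0.36 (D2 minus D2-13B6) for H3K9me3, and from -0.70 to 0.39 and -0.41 to -0.14 for H3K27ac.

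**Figure D5:**
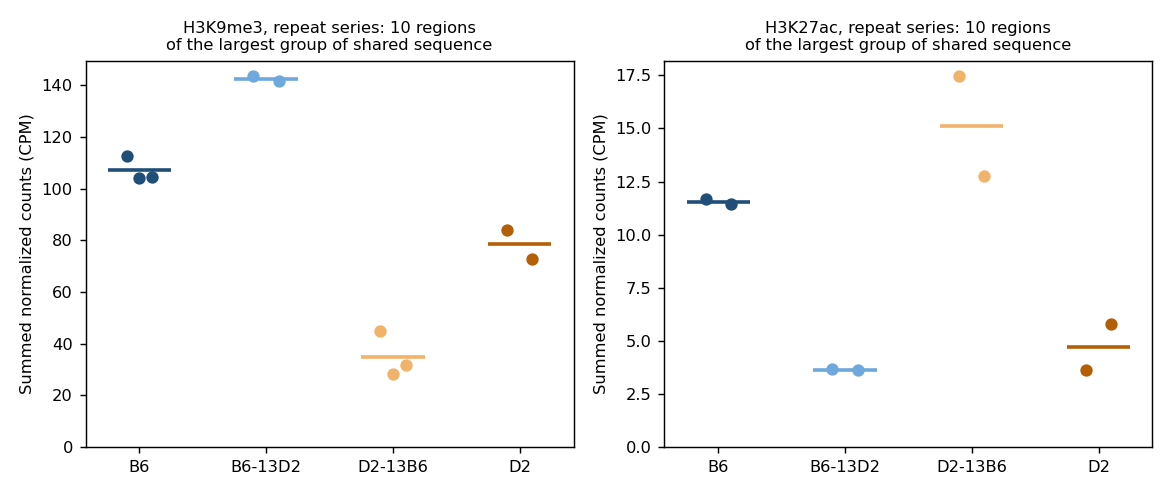
Summed normalized counts (CPM, y axes from 0) over the 10 regions of the largest group of shared sequence, for both marks in the repeat series; points are libraries after summing those within sampling noise for H3K27ac, and bars are group means. B6-13D2 (142 and 144 CPM) is above B6 for H3K9me3 and D2 above D2-13B6, while for H3K27ac B6-13D2 and D2 lie at 3.6 to 5.80 CPM and B6 and D2-13B6 at 11.4 to 17.5 CPM. The sums include the regions called in the segment comparisons.

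Single regions of the group differed in their order of lines. At chr2:88122727-88123453, which overlaps the annotated untranslated end of Olfr1166, H3K9me3 was 10.9, 6.09 and 10.3 CPM in B6, 19.8 and 21.7 in B6-13D2, 16.1 and 14 in D2 and 10.8, 3.74 and 2.11 in D2-13B6. It was the only region called for B6-13D2 minus B6 (log2 fold change 1.18 ± 0.326, edgeR adjusted p = 0.029) and was also called for D2 minus D2-13B6 (1.51, adjusted p = 0.023). Its H3K27ac was 2.81 and 1.79 CPM in B6 and 0.652 and 0.554 in B6-13D2 (-1.97 ± 0.359, adjusted p = 9.6e-05). At chr2:88969284-88969810, 7971 bp from Olfr1212, H3K9me3 was 8.06 and 4.65 CPM in D2 and 0, 0.747 and 0 CPM in D2-13B6, a count ratio of 15 to 1 that scales to 24.1 (exact 95% interval 3.72 to 1017, counting error only). At chr2:90272464-90273250, 1432 bp from Olfr1271, H3K9me3 was 16.1 and 14 CPM in D2 and 4.50, 2.99 and 7.02 in D2-13B6 (1.59 ± 0.414, adjusted p = 0.013). Its H3K27ac was lower with the DBA/2J segment on both backgrounds, by -2.45 ± 0.402 in B6-13D2 minus B6 and by -2.62 in D2 minus D2-13B6 (adjusted p = 1.7e-05 and 6.3e-06). The lowest log2 fold change of H3K27ac in D2 minus D2-13B6, at chr2:86842531-86843050, was from 6.20 and 3.33 CPM in D2-13B6 to 0.5 and 0.455 in D2 (-3.20 ± 0.378, adjusted p = 1.2e-08). In all, 5 of the 9 falls of H3K27ac in B6-13D2 and 3 of the 10 in D2 minus D2-13B6 were in this group, of which 8 regions were tested. Over all tested regions 5.40% and 5.24% were called lower in these 2 comparisons. The H3K9me3 calls rest on few libraries: the B6-13D2 minus B6 call was lost without B6 replicate 2 or 3 or either B6-13D2 library. For D2 minus D2-13B6, 0 calls were left without D2 replicate 1 and 1 without D2 replicate 2 or D2-13B6 replicate 2.

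Outside the group, the H3K27ac regions named for the segment comparisons lay at a receptor gene, at Ptprj and between genes. The Olfr52 region chr2:86182112-86183296 rose from 6.20 ± 0.261 CPM in B6 to 11.4 ± 0.727 in B6-13D2 (log2 fold change 0.90 ± 0.185, edgeR adjusted p = 0.00051). A region in an intron of Ptprj, a receptor-type tyrosine phosphatase gene at the edge of the interval (chr2:90485668-90486972), was higher with the DBA/2J segment on both backgrounds: 9.97 ± 0.630 CPM in B6 and 19.1 ± 0.939 in B6-13D2, and 4.32 ± 0.933 in D2-13B6 and 8.27 ± 1.00 in D2. The intergenic region chr2:90235684-90236871 was 23.3 ± 5.24 CPM in D2-13B6 and 10.8 ± 0.170 in D2 (-1.14 ± 0.163), and chr2:85561164-85561663 was 0.240 ± 0.0524 and 0.981 ± 0.263 (2.01 ± 0.591).

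The promoters of the receptor genes were almost free of regions. Of 182 promoter windows of cluster Olfr genes in RefSeq (250 bases before to 50 after the start, GRCm38.p6), 1 overlapped a shared-list region and 2 a region of the H3K27ac list of separate lines. The one at a shared-list region is that of Olfr52, shown here from the minus strand at chr2:86182060-86182359 because both marks fell there in D2 lines, with a TATAAA match in capitals.
promoter_Olfr52: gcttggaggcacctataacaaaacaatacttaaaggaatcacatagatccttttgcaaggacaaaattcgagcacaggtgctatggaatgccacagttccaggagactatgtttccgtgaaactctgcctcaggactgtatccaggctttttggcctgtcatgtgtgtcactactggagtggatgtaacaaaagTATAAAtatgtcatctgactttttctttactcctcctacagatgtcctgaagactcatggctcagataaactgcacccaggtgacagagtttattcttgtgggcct
TATAAA or its reverse complement was present in 101 of the 182 windows (55.5%), against 13.6% of all 32851 promoter windows, and TAATTA in 45 (24.7%) against 5.29%. GGGCGG or its reverse complement, a letter string frequent in CpG-rich promoters, was in none of the 182, against 35.7% of all windows. These are matches of letters and not binding sites.

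At the non-receptor genes of the interval, regions lay on gene starts of the flanks. The shared start of P2rx3, an ATP-gated channel gene, and Ssrp1, a subunit gene of the FACT histone chaperone, had 30.6 ± 2.33 CPM of H3K27ac in B6 and 30.9 ± 0.628 in D2 lines (log2 fold change 0.01 ± 0.0790, n = 3 each). The start of Tnks1bp1 had 26.5 ± 1.79 and 23.8 ± 1.05 CPM (edgeR adjusted p = 0.11). In the repeat series the start of Tnks1bp1 was higher in D2 than in B6 (20.4 ± 0.196 against 14.7 ± 0.474 CPM, adjusted p = 0.012). The starts of Aplnr, the apelin receptor gene, and 4833423E24Rik had mean levels of at most 1.65 CPM of H3K27ac in each of the 4 lines. Aplnr was called lower in B6-13D2 than in B6 (0.857 ± 0.224 against 1.65 ± 0.432 CPM, log2 fold change -1.09 ± 0.372, edgeR adjusted p = 0.044). H3K9me3 at these starts was at most 8.41 CPM in separate lines, where none could be tested.

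Of the Olfr genes outside the interval, 215 of 1120 (19.2%) had a region, against 32.4% of Vmn2r and 11.3% of Vmn1r genes, which encode vomeronasal receptors. Of all protein-coding genes 84.3% had one. H3K9me3 at the Olfr genes elsewhere was 12.8 ± 0.986 CPM per kb in B6 and 11.4 ± 0.230 in D2 lines, with 16 of 62 tested regions lower and 8 higher and a median log2 fold change of -0.21. At the Vmn1r genes 3 of 19 were lower and 1 higher, and at the Vmn2r genes 14 of 77 each way. Over all tested regions 17.4% were lower and 17.3% higher. Whether the cluster differs from these families was not tested.

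Genes of the receptor pathway were listed for H3K27ac at their starts. Of 21 genes for odorant signalling and receptor choice, 12 had a region in separate lines, and all 12 were tested: Adcy3, the olfactory adenylyl cyclase, went from 7.67 ± 0.590 to 10.5 ± 0.940 CPM and Reep1, a trafficking factor, from 8.10 ± 0.512 to 10.1 ± 0.546, both called higher in D2, while Ldb1, a cofactor of Lhx2 at receptor enhancers, was called lower (106 ± 5.99 to 89.3 ± 2.80). The list's summed level was 371 to 408 CPM in B6 and 374 to 382 in D2, and 49.3% of all tested regions were called. In the repeat series 5 of 17 were called higher in D2, where 14.7% of all tested regions were. The lowest adjusted p of a lower value was 0.051 in edgeR (Ldb1), and the sums overlapped at 153 to 172 CPM in B6 and 169 to 187 in D2. The list's summed H3K9me3 in that series was 152 to 173 CPM in B6 and 201 to 220 in D2, without overlap. For that mark 1 of 13 was called higher, where 4.58% of all tested regions were. Of 11 genes of H3K9 methylation and its readers 10 were tested and 7 were called higher in D2, where 24.3% of all tested regions were, among them Trim28, the KAP1 corepressor (2.64 ± 0.110 to 5.10 ± 0.264 CPM), and the methyltransferase genes Suv39h2 (18.6 ± 1.62 to 29.6 ± 0.875) and Ehmt1 (20.5 ± 1.79 to 31.4 ± 1.06). The summed level of this list overlapped between strains, at 914 to 1005 CPM in B6 and 962 to 974 in D2. In the repeat series it did not, at 339 to 380 CPM in B6, 439 to 473 in D2, 346 to 367 in B6-13D2 and 449 to 503 in D2-13B6. In that series 6 of 10 were called higher in D2, where 14.7% of all tested regions were. Embryonic stem cell markers summed to 1514 to 1705 CPM in B6 and 1546 to 1619 in D2 lines. The 6 markers of mature olfactory neurons summed to 13.8 to 15.0 CPM in B6 and 16.2 to 18.6 in D2, with 1 of 3 tested called higher, and Omp, Cnga2 and Rtp1 had no region.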

How the data were processed

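Chromatin was immunoprecipitated from formaldehyde-fixed, MNase-digested embryonic stem cells and sequenced with 75 bp reads, per the labels' protocols. H3K9me3 was precipitated with an Active Motif antibody, and H3K27ac with an abcam antibody in separate lines and a Cell Signaling antibody in the repeat series, so H3K27ac levels are not compared between them. Trimmomatic 0.39, HISAT2 2.2.1, MACS 1.4.2, bedtools 2.9.2 and edgeR were used with mm10, per the submitters' processing notes. The reference is C57BL/6J sequence, and the handling of reads that match several places is not given in the sources used here. The authors deposited whole-number counts per region, 1 column per library. A further 3 columns, 1 of them empty, were not used. Library totals over listed regions were 1487862 to 2559262 for H3K9me3 and 8735674 to 18272793 for H3K27ac, so H3K9me3 values are the less precise.

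From the deposited counts, edgeR 4.0.16 (R 4.3.3; TMM, filterByExpr, quasi-likelihood F-test) was fitted to every region of a table, with p-values adjusted over all of them and called under 0.05. SEs are derived from the F statistic. CPM scale the deposited counts to those in tested regions after TMM. Intervals of count ratios cover counting error only. In the H3K27ac repeat series, libraries of a line that differed by less than the sampling noise (chi-square per degree of freedom 0.905 to 0.967) were summed and counted as 1 sample, which left 2 per line. No label states that libraries of a repeat line came from separate cultures, so those p-values measure the spread between libraries only. Annotation was GENCODE M21 (GRCm38). The fit was tested on simulated data.

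The named regions are the 5 (separate lines) or 2 (other contrasts) called regions with the lowest adjusted p in each direction; named genes are the 10 (H3K9me3) or 5 (H3K27ac) Olfr genes highest per kb, those called for H3K9me3, and other genes with a region at their start. The members and lists were chosen with earlier results of these data known. Alternatives were another normalization, filters, DESeq2, replicate blocks, single libraries or summed samples left out and other definitions of the receptor class.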

Additional observations from a re-analysis of the deposited data

Results flagged for a closer look

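The 2 exchanges of the chromosome 13 segment (B6-13D2 minus B6, and D2 minus D2-13B6) differed from each other in H3K27ac at 9 of 169 tested cluster regions, where 5.30% of all tested regions did (edgeR interaction, adjusted p under 0.05). The value given is the difference of the 2 log2 fold changes. For H3K9me3 no cluster region was called in edgeR (6 of 121 at an unadjusted p under 0.05).

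At Olfr52 it was 1.32 for chr2:86179427-86180749 (0.21 in B6-13D2 minus B6 and -1.11 in D2 minus D2-13B6) and 1.64 for chr2:86182112-86183296 (0.90 and -0.74). Near Olfr1245, chr2:89562380-89563793 gave 1.45 (0.82 and -0.63). At Gm20734, chr2:86393791-86395233 gave 1.47 (0.33 and -1.14). Near Olfr1186, chr2:88512999-88513745 gave 1.68 (0.72 and -0.96). Near Olfr1056, chr2:86351920-86352777 gave 1.42 (0.93 and -0.49). Near Olfr1274-ps, chr2:90422368-90422610 gave 3.11 (2.16 and -0.95), and in Ptprj chr2:90447127-90447607 gave 1.26 (0.76 and -0.50). The only negative value was -2.96, for chr2:85561164-85561663 near Olfr996 (-0.96 and 2.01). D2-13B6 replicate 1, which stood apart from the other libraries of its line, enters each of these, and its part was not tested.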

How the results depend on the processing

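The direction of the strain difference in the cluster's H3K9me3 share held under all 8 alternatives. The number of called regions moved by over 1.5 times as follows. With a mean of at least 20 counts required, it was 14 (H3K9me3 lines) and, for the H3K9me3 repeat series, 5 (D2 minus B6), 0 (B6-13D2 minus B6) and 1 (D2 minus D2-13B6). With DESeq2 it was 21, 7, 0 and 1 in the same order, and 25, 5 and 7 for the 3 H3K27ac repeat comparisons. With no filter or with the replicate block, B6-13D2 minus B6 had 0 for H3K9me3; with the block, and with every library as its own sample, D2 minus D2-13B6 had 20 for H3K27ac. Replicate numbers do not pair samples (correlations of same-numbered libraries -0.067 to 0.16, 1 of 37 above 0.1).

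Leaving out 1 library at a time gave 32 to 38 (H3K9me3 lines), 12 to 28, 0 to 1 and 0 to 3 (H3K9me3 repeat, order as above), 29 to 35 (H3K27ac lines), 29 to 68, 3 to 29 and 5 to 21 (H3K27ac repeat). For H3K27ac in the repeat series the unit left out was a sample after summing, so 2 libraries were left out together where they had been summed. Lone remaining samples were assumed to vary like the other groups. The lowest H3K27ac counts came without B6 replicates 1 and 2 (3) and without D2 replicates 1 and 3 (5), and H3K9me3 D2 minus B6 fell to 12 without D2 replicate 1. The share of H3K27ac differed by -1.3e-05 to 0.00529 percentage points (reversed without B6 replicate 3), and that of H3K9me3 by -0.0468 to -0.0352. The receptor to between-gene ratio was -0.62 to -0.52 (H3K9me3) and 0.67 to 0.83 (H3K27ac), for which the exact permutation test over 5 libraries cannot go below p = 0.063. For H3K9me3 it was -0.20 with other genes counted as between. For H3K27ac it reversed to -0.26 where the region had to lie for the most part in the gene and to -0.14 for medians over regions. A region of few H3K9me3 counts that was not called may still differ.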
